A study of Homo sapiens and Mus musculus with 29 samples.

Results

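The members described here are 37 human genes of cholesterol and fatty acid synthesis, found by gene symbol among the 58674 genes of a table from HPAF-II tumors, and their 38 mouse counterparts in a table from KPC cell lines. They were chosen for their function and not for their values. The list holds 5 regulators (SREBF1, SREBF2, SCAP, INSIG1 and INSIG2), 17 genes of the sterol branch and 15 of the fatty acid branch, and in mouse SCD has the counterparts Scd1 and Scd2. All 37 were found, and 34 reached an average of 1 RPKM in the primary tumors and were tested. RPKM is the number of reads scaled to the length of the gene and to the depth of the library.

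Cells build cholesterol and fatty acids from acetyl-CoA in the cytosol. SREBF1 and SREBF2 encode SREBP-1 and SREBP-2, membrane-bound transcription factors that SCAP escorts from the endoplasmic reticulum to the Golgi when sterols are low, while INSIG1 and INSIG2 hold SCAP back when sterols are high. The sterol branch then runs through mevalonate, farnesyl pyrophosphate, squalene and lanosterol to cholesterol, and the fatty acid branch through malonyl-CoA and palmitate to longer, desaturated and esterified fatty acids. In the pancreas, ductal tumors both take up and make these lipids.

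HPAF-II is an established human pancreatic adenocarcinoma line of the classical subtype, grown here in the pancreas of NSG mice of about 8 weeks, which lack functional lymphocytes. There were 3 control tumors (Cas-9 with an empty vector), 4 HNF4G-KO tumors, 3 FOXA1-OE tumors (Cas-9 cells that carry a FOXA1 vector) and 5 HNF4G-KO + FOXA1-OE tumors from 4 mice, so that every group carried a vector. HNF4G-KO cells were a pool of 3 clones with frameshift mutations made with Cas9. The study's methods call the clones knockouts and their mutations heterozygotic. The FOXA1-OE vector was lentiviral. Metastases came from 2 HNF4G-KO mice (peritoneum) and from 3 HNF4G-KO + FOXA1-OE mice (4 samples from spleen, fat and peritoneum). The KPC lines, from a mouse primary pancreatic tumor and its liver metastasis, were grown in culture, with 4 libraries each. Reads of host cells that align to the human genome cannot be told apart from those of the tumor cells, nor can fewer cells from less RNA per cell.

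The 4 promoters from RefSeq (GRCh38.p14, plus strand) are those of EBP and NSDHL, the sterol genes that fell, SCD, a fatty acid gene that rose, and SREBF2. SREBF2, the sterol regulator, passed the test in no comparison. Each run ends before the annotated start of the gene. In SREBF2, capitals mark the letters TCACNCCAC of a sterol regulatory element, and in the other genes the letters CCAAT of an NF-Y box, read on the minus strand as ATTGG.
SREBF2 at chr22:41832855-41833104: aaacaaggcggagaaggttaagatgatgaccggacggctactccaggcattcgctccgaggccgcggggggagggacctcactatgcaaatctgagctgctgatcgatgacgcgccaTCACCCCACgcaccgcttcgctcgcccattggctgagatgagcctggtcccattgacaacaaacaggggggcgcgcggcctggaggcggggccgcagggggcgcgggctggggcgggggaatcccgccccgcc
EBP at chrX:48521558-48521798: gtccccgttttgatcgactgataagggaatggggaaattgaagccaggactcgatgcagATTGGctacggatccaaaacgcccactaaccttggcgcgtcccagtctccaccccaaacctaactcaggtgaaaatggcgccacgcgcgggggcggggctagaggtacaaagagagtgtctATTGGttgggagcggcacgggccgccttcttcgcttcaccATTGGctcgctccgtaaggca
NSDHL at chrX:152830813-152830966: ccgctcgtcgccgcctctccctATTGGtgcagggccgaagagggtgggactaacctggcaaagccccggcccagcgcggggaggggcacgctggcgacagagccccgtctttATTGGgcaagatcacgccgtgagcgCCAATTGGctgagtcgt
SCD at chr10:100346983-100347232: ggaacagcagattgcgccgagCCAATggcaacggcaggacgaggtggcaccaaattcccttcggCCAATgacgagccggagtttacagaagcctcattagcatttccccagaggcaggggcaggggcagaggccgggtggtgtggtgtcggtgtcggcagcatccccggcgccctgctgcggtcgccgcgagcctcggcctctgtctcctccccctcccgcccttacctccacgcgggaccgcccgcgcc

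Windows of 250 bases before and 50 bases after the start were found for 32 of the 37 members. The letters CCAAT, searched on both strands, were present in at least 1 window of 13 of the 15 sterol members, of 8 of the 12 fatty acid members and of 2 of the 5 regulators, and of 39.7% of 27305 genes in all. In NSDHL a plus and a minus match overlap. TCACNCCAC was found in SREBF2 and in ACSL1 alone among the members, and in 1.39% of all genes. The E-box letters CANNTG, which read the same on both strands, were in 12 of 15 sterol members and 73.1% of all genes. A match describes the letters and is no evidence of a bound factor.

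The depth, worked out from the steps between RPKM values, was 33.1 to 69.6 M reads in HPAF-II libraries and 30.1 to 44.4 M in KPC libraries. The label check gave mixed results. HNF4G mRNA was at 3.47, 2.48 and 2.57 RPKM in control tumors and at 7.10, 8.42, 5.72 and 7.11 RPKM in tumors labeled HNF4G-KO, so that the transcript was higher in the tumors labeled as knockout. A frameshift need not remove the transcript, the mRNA is thus no check of the knockout, and directions below follow the labels. FOXA1 was at 0.932, 0.679 and 0.519 RPKM in control tumors and 6.32, 8.18 and 0.763 RPKM in FOXA1-OE tumors, the last of which was within the control range. FOXA1-OE tumor 3 and HNF4G-KO + FOXA1-OE tumor 5 stood apart in several members, as described with their values. Control tumor 2 held acinar transcripts of the host pancreas (448 RPKM summed over 10 markers, against 3.91 and 4.91 RPKM in the other control tumors).

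CYP51A1, FADS1 and FADS2 could not be tested because of their low level. CYP51A1, the lanosterol demethylase, ranged from 0.107 to 1.52 RPKM over the 21 HPAF-II samples. In GENCODE, 74.1% of its exon bases lie within exons of other genes, and 68.2% within those on the same strand. The part of this overlap in its level was not tested. FADS1 and FADS2, the desaturases of polyunsaturated fatty acids, did not exceed 0.493 and 0.685 RPKM. In the KPC lines, the mouse counterparts Cyp51, Fads1 and Fads2 were between 27.7 and 106.6 RPKM in every library, although the tables were made separately and levels should not be compared between them.

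Among the tested members, the level in control tumors differed widely. ACSL5, an acyl-CoA synthetase, had the highest mean level at 108 ± 19.5 RPKM (SD, n = 3), followed by EBP, the sterol isomerase, at 76.4 ± 13.5 RPKM (SD, n = 3), ELOVL1, an elongase of very long saturated chains, at 65.3 ± 5.50 RPKM (SD, n = 3), and SCD, the stearoyl-CoA desaturase, at 62.02 ± 8.22 RPKM (SD, n = 3). EBP, ELOVL1 and SCD did not differ beyond their spread. FDFT1, the squalene synthase, followed at 45.05 ± 5.10 RPKM (SD, n = 3). At the low end were ACSL1 at 1.13 ± 0.362 RPKM (SD, n = 3) and HSD17B7 at 1.57 ± 0.300 RPKM (SD, n = 3), which has near-identical pseudogenes, as has FDPS. The level of FASN, the fatty acid synthase, was 13.3 ± 2.46 RPKM (SD, n = 3), and that of SQLE, the squalene epoxidase and a rate-limiting step of sterol synthesis, was 19.7 ± 2.91 RPKM (SD, n = 3).

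The comparison of HNF4G-KO with control tumors asked which genes differ with the knockout. The knockout cells were a pool of 3 single-cell clones, while the study's methods describe no such cloning of control cells. Effects of the knockout and of the clones cannot be told apart. In HNF4G-KO tumors SCD and DGAT2 of the fatty acid branch rose and EBP and NSDHL of the sterol branch fell. No test compared the branches. Called members were 4 of 34 (limma, adjusted p under 0.05), against 12.2% of the 14269 genes tested. By direction these were 2 of 34 members higher against 6.18% of all genes, and 2 of 34 lower against 5.99%, so that the list as a whole moved about as often as other genes. The median log2 difference was -0.01 for 16 sterol members, 0.27 for 13 fatty acid members and 0.31 for the 5 regulators, and 0.01 for all genes.

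DGAT2, which catalyzes the last step of triglyceride synthesis, was at 3.58, 2.31 and 2.52 RPKM in control tumors and at 8.79, 6.63, 6.09 and 7.06 RPKM in HNF4G-KO tumors. All HNF4G-KO tumors were above all control tumors, and the log2 difference was 1.10 (standard error 0.18, 95% interval 0.72 to 1.49, adjusted p = 0.00324). SCD, which places the double bond in stearate and palmitate, was at 71.4, 58.8 and 55.9 RPKM in control tumors and at 108, 105, 117 and 109.9 RPKM in HNF4G-KO tumors. The groups did not overlap here either, and SCD rose by 0.82 (0.17, interval 0.47 to 1.18, adjusted p = 0.0104), a call that was lost without control tumor 2 (0.79, adjusted p = 0.0629).

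EBP was at 62.00, 78.4 and 88.7 RPKM in control tumors and at 38.8, 27.2, 30.5 and 34.5 RPKM in HNF4G-KO tumors. Its level fell in every HNF4G-KO tumor below the lowest control tumor, with a log2 difference of -1.19 (0.22, interval -1.66 to -0.73, adjusted p = 0.00643). An unnamed gene on the same strand covers 36.4% of its exon bases, and its part in this result was not tested. NSDHL, which removes a methyl group upstream of EBP, was at 25.5, 27.9 and 30.02 RPKM in control tumors and at 20.6, 16.1, 17.8 and 19.9 RPKM in HNF4G-KO tumors. It fell by 0.56 on the log2 scale (0.14, interval -0.87 to -0.25, adjusted p = 0.0263), without overlap, and this call was lost in 5 of the 14 fits that left out a tumor of the fit, with adjusted p up to 0.107.

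Both sterol genes that fell lie on chromosome X, EBP from 48521799 to 48528716 and NSDHL from 152830967 to 152869729 (GRCh38). Of the 457 genes tested on that chromosome, 66 were lower and 6 higher in HNF4G-KO tumors by the same test. This is 14.4% lower, against 5.99% of all genes, and the median log2 difference on the chromosome was -0.18. Without the 2 tumors that stand apart 135 of 454 were lower (29.7%, against 13.8% of all genes). Within 2 Mb of EBP, 40 of 49 other tested genes had a negative difference and 9 were called lower, and within 2 Mb of NSDHL these were 40 of 45 and 13. No sterol member outside chromosome X passed the test. Near SCD (chromosome 10, 100347233 to 100364826), 32 of 40 genes had a positive difference, and near DGAT2 (chromosome 11, 75759512 to 75801535), 28 of 41. The part of the neighborhood in these results was not tested, nor was that of the clones.

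The other sterol members did not move together. IDI1, which makes dimethylallyl pyrophosphate, was at 11.9, 14.2 and 11.7 RPKM in control tumors and 18.9, 26.8, 21.9 and 14.1 RPKM in HNF4G-KO tumors (0.63, adjusted p = 0.129). SC5D, a late desaturase of the pathway, was above the control range in all HNF4G-KO tumors without passing the test (0.56, adjusted p = 0.207). For HMGCS1, which makes HMG-CoA at the start of the branch, the difference was 0.19 (interval -0.67 to 1.04), and for SQLE it was 0.02 (interval -0.50 to 0.55). Among all 16, 8 differences were positive and 8 negative.

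In the fatty acid branch, 9 of 13 differences were positive. ACLY, which makes cytosolic acetyl-CoA from citrate, was at 21.6, 20.9 and 16.1 RPKM in control tumors and 24.8, 28.6, 26.4 and 26.4 RPKM in HNF4G-KO tumors, without overlap (0.43, adjusted p = 0.128). ACACA, which carboxylates acetyl-CoA, had a difference of 0.46 (adjusted p = 0.0856) and ELOVL1 one of 0.61 (adjusted p = 0.0570), and neither passed the test although neither overlapped. FASN was at 12.3, 10.2, 14.9 and 14.9 RPKM in HNF4G-KO tumors and 13.96, 15.4 and 10.6 RPKM in control tumors (-0.03, interval -0.50 to 0.45). Groups did not overlap for 9 of the 34 members that were higher, against 25.1% of all genes, and 3 that were lower, against 21.3%. An unadjusted p under 0.05 was found in 10 of 34 members, against 30.6%.

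For the regulators, no difference passed the test. SREBF1 was at 10.4, 9.93 and 8.51 RPKM in control tumors and 14.1, 11.2, 12.96 and 15.3 RPKM in HNF4G-KO tumors (0.43, adjusted p = 0.168). The difference was 0.31 for SREBF2, 0.44 for INSIG1, -0.12 for INSIG2 and -0.04 for SCAP, with adjusted p from 0.124 to 0.906. SREBF1 and SREBF2 were without overlap between the groups, and INSIG1 was not.

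The spread of the 2 libraries that stand apart entered this test through the common variance. Without FOXA1-OE tumor 3 and HNF4G-KO + FOXA1-OE tumor 5, which are in neither group, 8 members were called, against 31.8% of all genes, adding ACLY (0.43), ELOVL1 (0.61), IDI1 (0.63) and SC5D (0.56). A fit of the 2 groups alone called 11 members, against 39.7% of all genes, also with ACACA, ELOVL5 and SREBF1. Host stroma markers summed to 88.0 to 212 RPKM in control tumors and 57.1 to 80.4 RPKM in HNF4G-KO tumors, and with their mean as a covariate 9 members were called, against 24.2% of all genes, with SCD at 0.98, DGAT2 at 1.05, EBP at -1.45 and NSDHL at -0.67.

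**Figure D1:**
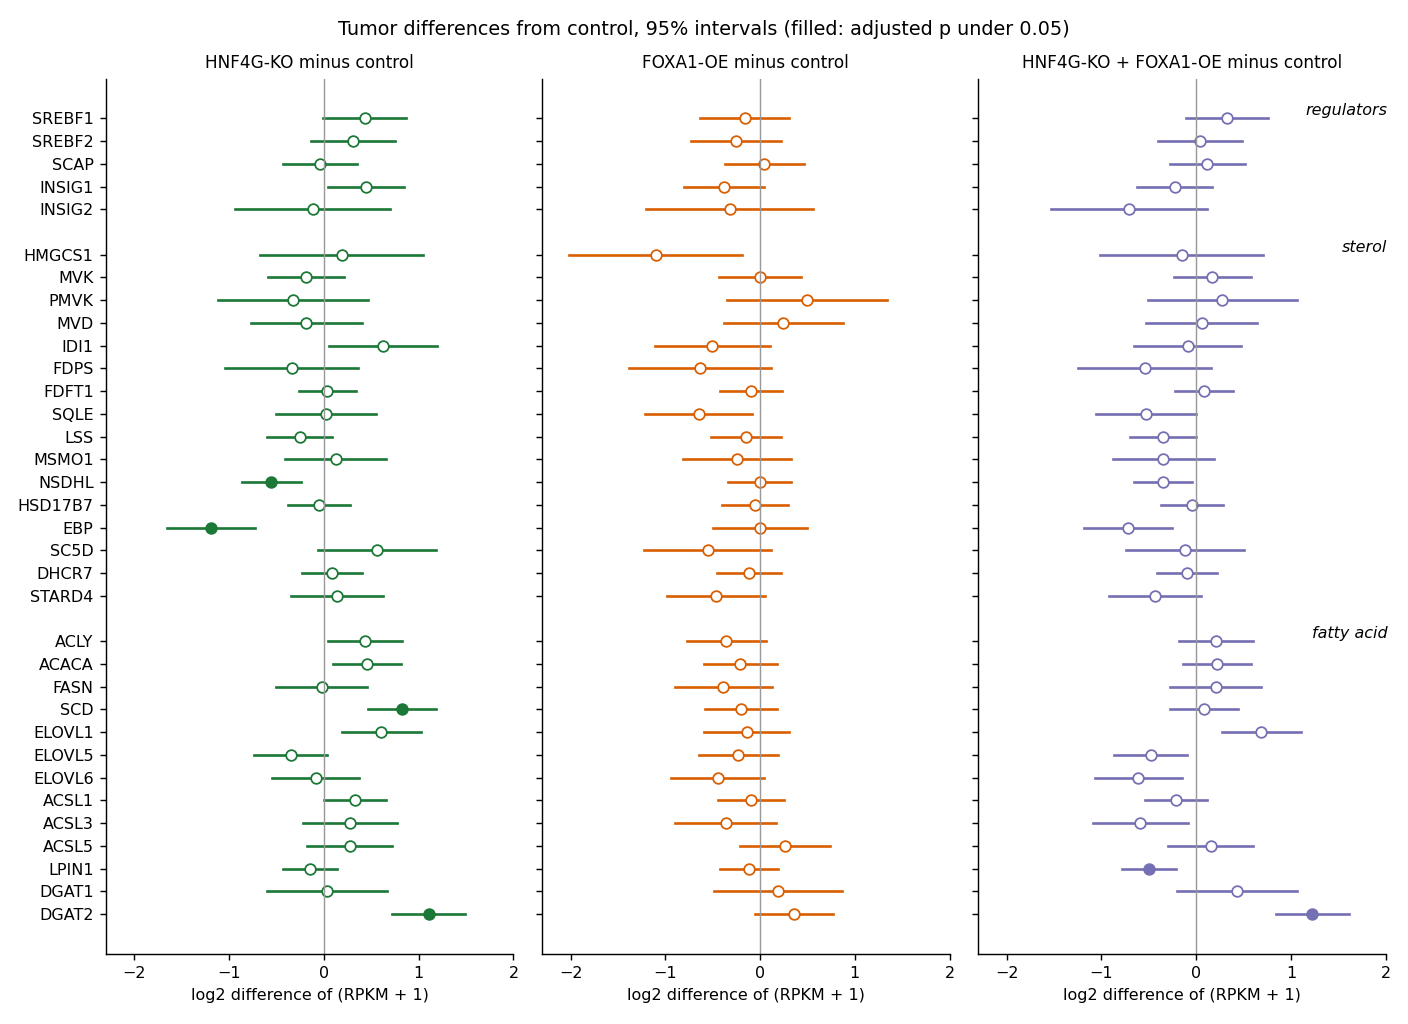
Log2 difference of (RPKM + 1) from control tumors with 95% intervals for each tested member, by branch, in HNF4G-KO (green), FOXA1-OE (orange) and HNF4G-KO + FOXA1-OE tumors (violet), which share the same control tumors. Filled points passed the test, which were 4, 0 and 2 members, and DGAT2 lies above 1 in both groups labeled HNF4G-KO.

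FOXA1-OE against control tumors asked what the FOXA1 vector changes in cells without the knockout. FOXA1-OE tumor 3 had FOXA1 within the control range (0.763 RPKM). Its HNF4G was at 0.495 RPKM, against 3.04 and 2.26 RPKM in FOXA1-OE tumors 1 and 2 and 2.48 to 3.47 RPKM in control tumors. No member passed the test (limma), nor did any other gene (0.00% called of 14269), and 2 of 34 members had an unadjusted p under 0.05, against 4.57% of all genes. These were HMGCS1 and SQLE. HMGCS1 was at 15.7, 15.5 and 4.44 RPKM in FOXA1-OE tumors and 26.1, 27.4 and 18.2 RPKM in control tumors (-1.10, interval -2.02 to -0.19, adjusted p = 0.840). SQLE was at 14.04, 14.8 and 8.47 RPKM against 17.9, 23.04 and 18.1 RPKM (-0.65, interval -1.21 to -0.08, adjusted p = 0.840). Every FOXA1-OE tumor was below every control tumor in both genes, and FOXA1-OE tumor 3 was the lowest of all 21 samples. In all, 1 member was higher without overlap, against 5.70% of all genes, and 3 were lower, against 3.55%.

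The differences of the other named members in this comparison were -0.16 for SREBF1, -0.25 for SREBF2, 0.05 for SCAP, -0.38 for INSIG1, -0.32 for INSIG2, -0.39 for FASN and -0.20 for SCD, and none passed the test. Of the 16 sterol members 13 had a negative difference, and of the 13 fatty acid members 10, with medians of -0.13 and -0.20, against -0.03 for all genes. Without FOXA1-OE tumor 3 and HNF4G-KO + FOXA1-OE tumor 5 no member was called either, against 0.00709% of all genes, and the median of sterol members was -0.10 and that of fatty acid members -0.08.

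Across all tested genes, FOXA1-OE tumor 3 and HNF4G-KO + FOXA1-OE tumor 5 had a correlation of 0.70 between their deviations from the group means. The shift of FOXA1-OE tumor 3 was not limited to sterol genes. Its median log2 difference from control tumors was -0.36 for sterol members, -0.29 for fatty acid members and -0.70 for regulators, against -0.20 for all genes. The level of HMGCS1 was 4.44 RPKM, that of FDPS, the farnesyl pyrophosphate synthase, 5.35 RPKM, that of IDI1 5.78 RPKM, that of SC5D 3.07 RPKM and that of STARD4, a cholesterol carrier, 1.74 RPKM, each the lowest of the 21 samples. SREBF2 was at 9.23 RPKM there and from 16.7 to 27.3 RPKM in all other samples. In the same tumor EBP (98.3 RPKM), NSDHL (32.0 RPKM) and PMVK, the phosphomevalonate kinase (55.4 RPKM), were the highest of all samples. HNF4G-KO + FOXA1-OE tumor 5 was low in HMGCS1 (10.0 RPKM), IDI1 (7.75 RPKM) and SC5D (4.74 RPKM) and high in PMVK (50.9 RPKM) and DGAT1, the other triglyceride-forming enzyme (57.6 RPKM). Across the 34 members, the difference from control tumors had a Pearson correlation with the GC content of the longest transcript of 0.52 in the former and 0.74 in the latter tumor, against 0.23 and 0.42 across 14110 genes. This correlation is across genes, which are not independent, and its part in these profiles was not tested.

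HNF4G-KO + FOXA1-OE against HNF4G-KO tumors addressed the effect of FOXA1 in HNF4G-KO cells. No member passed the test (limma), against 0.0561% of all genes, and 11 of 34 members had an unadjusted p under 0.05, against 20.3% of all genes. SCD was at 73.1, 94.3, 53.2, 63.98 and 55.1 RPKM in HNF4G-KO + FOXA1-OE tumors, all of which were below all HNF4G-KO tumors, and the difference was -0.74 (0.15, interval -1.07 to -0.41, adjusted p = 0.104). Tumors 2 and 3 of this group, at 94.3 and 53.2 RPKM, came from the same mouse. INSIG1, itself a target of SREBPs, was at 8.19, 9.85, 5.76, 7.39 and 7.10 RPKM, against 11.5, 14.4, 14.2 and 10.7 RPKM in HNF4G-KO tumors, without overlap (-0.67, adjusted p = 0.196). With the host stroma covariate SCD (-0.76) and ACSL3, an acyl-CoA synthetase (-0.91), were called, against 0.519% of all genes, and without the 2 tumors that stand apart ACSL3 alone (-0.70, adjusted p = 0.0457), against 0.199%.

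Differences of the other named members were -0.11 for SREBF1, -0.26 for SREBF2, 0.16 for SCAP, -0.59 for INSIG2, -0.34 for HMGCS1, -0.55 for SQLE and 0.23 for FASN. DGAT2 was at 9.04, 6.03, 5.99, 7.03 and 9.64 RPKM, overlapping with HNF4G-KO tumors (0.12, interval -0.23 to 0.48). EBP was at 42.8, 37.5, 35.7, 44.5 and 60.7 RPKM, with a difference of 0.47 (adjusted p = 0.225). Without overlap, 9 members were lower, against 12.2% of all genes, and 0 higher, against 3.01%. The medians were -0.14 for sterol and -0.22 for fatty acid members, against -0.08 for all genes.

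Against control tumors, which serve as the reference of the first comparison as well, HNF4G-KO + FOXA1-OE tumors had 2 of 34 members called, against 4.70% of all genes (1 higher against 2.14%, 1 lower against 2.55%). DGAT2 rose by 1.23 (0.18, interval 0.84 to 1.61, adjusted p = 0.00293), and all 5 tumors were above all control tumors. The adipose markers summed to 21.4 to 24.0 RPKM in control tumors and 24.8 to 72.7 RPKM in these tumors. Only CIDEC and CFD of the 9 markers reached 1 RPKM in either group. With the marker mean as a covariate the DGAT2 difference was 0.76 and did not pass the test (adjusted p = 0.0665). The part of host fat in it was not tested. LPIN1, the phosphatidate phosphatase that yields diacylglycerol, was at 1.42, 1.98, 1.34, 1.88 and 1.32 RPKM, against 2.70, 3.14 and 2.08 RPKM in control tumors. It fell by 0.50 (0.13, interval -0.78 to -0.21, adjusted p = 0.0475), without overlap. The call was lost in 18 of 23 alternatives, in each of which the difference stayed negative. Within 2 Mb of LPIN1, 14 of 16 other tested genes had a negative difference and 2 were called lower (12.5%, against 2.55% of all genes). The part of this neighborhood was not tested. SCD, called in HNF4G-KO tumors, had a difference of 0.08 here (interval -0.27 to 0.44).

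EBP (-0.72, adjusted p = 0.0743) and NSDHL (-0.35, adjusted p = 0.200) did not pass the test against control tumors, although all 5 tumors were below all control tumors in both. On chromosome X, 34 of 457 genes were called lower (7.44%, against 2.55% of all genes) and 3 higher, and without the 2 tumors that stand apart 46 of 454 were lower (10.1%, against 4.75%). EBP was called without the 2 tumors that stand apart (-0.86, adjusted p = 0.0130), as was ELOVL1 (0.75, adjusted p = 0.0373), and then 4 members were called, against 8.89% of all genes. A fit of these 2 groups alone called none, against 0.174% of all genes, and the host stroma covariate left 2 called, DGAT2 (1.18) and EBP (-0.94), against 4.17%. Without overlap, 2 members were higher, against 6.78% of all genes, and 7 lower, against 12.1%, and 9 had an unadjusted p under 0.05, against 19.2%. Differences of the other named members were 0.33 for SREBF1, 0.04 for SREBF2, 0.12 for SCAP, -0.23 for INSIG1, -0.71 for INSIG2, -0.15 for HMGCS1, -0.53 for SQLE and 0.21 for FASN.

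Within FOXA1-OE tumors, HNF4G-KO + FOXA1-OE against FOXA1-OE alone had 2 of 34 members called, both higher, against 7.86% of all genes (3.32% higher and 4.54% lower), and 10 had an unadjusted p under 0.05, against 23.6%. ELOVL1 was at 61.9, 58.01 and 57.2 RPKM in FOXA1-OE tumors and 158, 79.1, 130.0, 83.6 and 92.7 RPKM in HNF4G-KO + FOXA1-OE tumors, without overlap (0.83, 0.19, interval 0.41 to 1.25, adjusted p = 0.0197). DGAT2 was at 3.58, 3.70 and 4.22 RPKM in FOXA1-OE tumors and rose by 0.87 (0.18, interval 0.48 to 1.25, adjusted p = 0.0100), again without overlap. EBP was lower in all 5 tumors than in all FOXA1-OE tumors without passing the test (-0.72, adjusted p = 0.0565). On chromosome X, 60 of 457 genes were called lower (13.1%, against 4.54% of all genes) and 6 higher. Without the 2 tumors that stand apart 71 of 454 were lower (15.6%, against 6.09% of all genes).

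Without the 2 tumors that stand apart, 4 members were called in this comparison, against 9.31% of all genes, DGAT2 (0.83), ELOVL1 (0.87), EBP (-0.67) and HMGCS1 (0.75, adjusted p = 0.0389). A fit of these 2 groups alone called none, against 0.597% of all genes, and with the host stroma covariate 5 were called, against 12.5%. Without overlap, 2 members were higher, against 5.39% of all genes, and 3 lower, against 9.22%. The differences of other named members, none of which passed the test, were 0.49 for SREBF1, 0.30 for SREBF2, 0.07 for SCAP, 0.15 for INSIG1, -0.39 for INSIG2, 0.95 for HMGCS1, 0.12 for SQLE, 0.59 for FASN and 0.28 for SCD.

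The FOXA1-OE effect was compared with and without HNF4G-KO in the same fit. No member passed the test of that difference (limma), against 0.0350% of all genes, and 1 of 34 had an unadjusted p under 0.05, against 8.47% of all genes. This was SCD, for which the FOXA1-OE effect was -0.20 in cells without the knockout and -0.74 in HNF4G-KO cells. The difference was -0.54 (0.23, interval -1.04 to -0.04, adjusted p = 0.544). For FASN the difference was 0.62 and for HMGCS1 0.76, and those of SREBF1, SREBF2, SCAP, INSIG1, INSIG2 and SQLE were 0.06, -0.01, 0.11, -0.29, -0.27 and 0.10. All of these intervals held 0 except that of SCD. Without the 2 tumors that stand apart no member was called either, against 0.0993% of all genes.

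**Figure D2:**
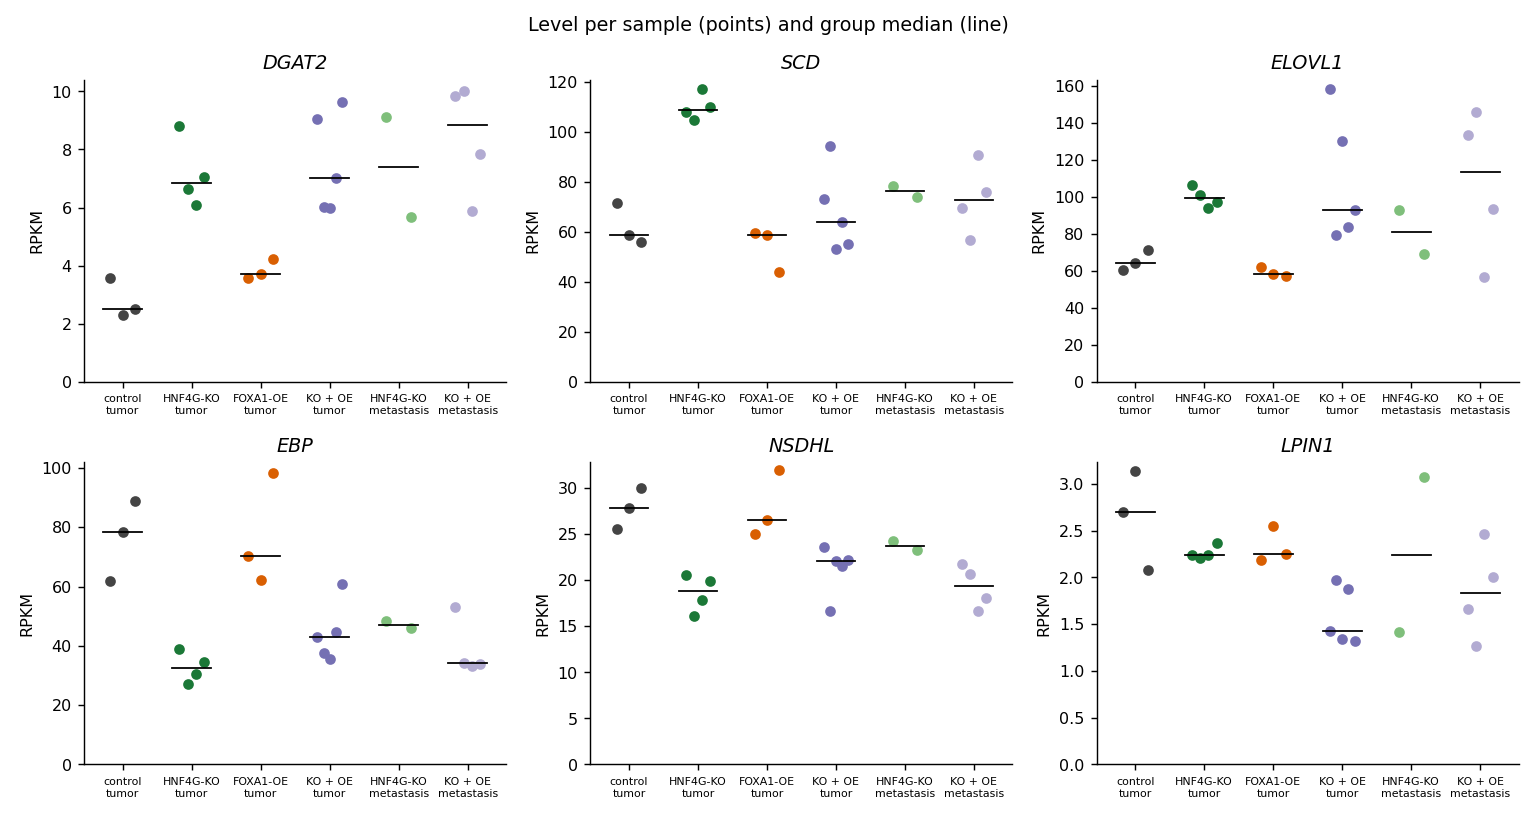
Level in RPKM of the 6 members called in any comparison, per sample (points) with the group median (line), in 6 HPAF-II groups, where KO + OE stands for HNF4G-KO + FOXA1-OE. DGAT2 is from 5.67 to 10.0 RPKM in all groups labeled HNF4G-KO and from 2.31 to 4.22 RPKM in the others, while SCD is above 100 RPKM in HNF4G-KO primary tumors alone.

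Metastases were compared with primary tumors to ask what changes outside the pancreas. Both HNF4G-KO metastases came from mice of 2 of the HNF4G-KO tumors, and 2 of the 3 HNF4G-KO + FOXA1-OE mice with metastases also gave a tumor. With the mouse as a block no member was called in either group, against 0.546% of all genes in HNF4G-KO mice and 0.078% in HNF4G-KO + FOXA1-OE mice. In HNF4G-KO mice, where 2 peritoneal metastases met 4 tumors, no member was called (limma), against 0.0426% of 14099 genes, and 2 of 34 had an unadjusted p under 0.05, against 13.4%. SCD was at 78.4 and 74.1 RPKM in metastases, below all HNF4G-KO tumors (-0.52, interval -0.94 to -0.10, adjusted p = 0.293). EBP was at 48.3 and 45.9 RPKM, above all HNF4G-KO tumors (0.52, adjusted p = 0.333). Of the 16 sterol members 15 had a positive difference, with a median of 0.14, and of the 13 fatty acid members 10 had a negative one, with a median of -0.06, against a median of -0.09 for all genes.

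Other named members in that comparison were SREBF1 (-0.36), SREBF2 (-0.07), SCAP (-0.35), INSIG1 (0.06), INSIG2 (-0.59), HMGCS1 (0.05), SQLE (-0.07) and FASN (-0.04), with adjusted p from 0.425 to 0.956. IDI1 was at 32.3 and 19.1 RPKM, its highest level in the 21 samples being that of the first metastasis. Without overlap, 3 members were higher, against 11.9% of all genes, and 5 lower, against 21%. The metastases differed in host content, as stroma markers summed to 80.7 and 435 RPKM.

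In HNF4G-KO + FOXA1-OE mice no member was called either (limma), against 0.00709% of all genes, and 2 of 34 had an unadjusted p under 0.05, against 9.62%. FOXA1 was at 0.535, 17.9, 1.30 and 1.55 RPKM in HNF4G-KO + FOXA1-OE metastases 1 to 4. It was 4.65 to 23.1 RPKM in HNF4G-KO + FOXA1-OE tumors and 1.26 to 1.87 RPKM in HNF4G-KO tumors, which carry no FOXA1 vector. Metastases 1, 3 and 4 were thus below every HNF4G-KO + FOXA1-OE tumor in FOXA1, and its part in the differences was not tested. The median difference was 0.27 for sterol members and 0.20 for fatty acid members, against 0.05 for all genes. SREBF2 was at 27.3, 23.1, 20.4 and 25.7 RPKM in metastases and 17.2, 19.5, 16.8, 20.4 and 17.9 RPKM in tumors (0.35, interval -0.02 to 0.71, adjusted p = 0.524), without overlap. HMGCS1 was at 25.1, 26.5, 29.6 and 30.2 RPKM (0.42), SQLE at 15.1, 13.7, 20.04 and 21.6 RPKM (0.44), FASN at 25.4, 17.7, 18.4 and 13.2 RPKM (0.16) and SCD at 69.6, 56.9, 90.7 and 75.8 RPKM (0.21), all with overlap. Without overlap, 4 members were higher, against 4.12% of all genes, and 0 lower, against 2.41%. Without HNF4G-KO + FOXA1-OE tumor 5 no member was called, against 0.0143% of all genes, and the medians were 0.10 for sterol and 0.16 for fatty acid members, with HMGCS1 at 0.08. Metastases 1 (spleen) and 2 (fat) came from the same mouse and had ELOVL1 at 134 and 146 RPKM, against 56.5 and 93.4 RPKM in the other metastases.

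For the remaining regulators in these mice the differences were 0.02 for SREBF1, -0.12 for SCAP, 0.30 for INSIG1 and 0.08 for INSIG2. Metastases in fat could hold adipocytes, in which SCD, FASN and DGAT2 are high. Of the 9 adipose markers, ADIPOQ, RETN, FABP4 and PLIN4 did not exceed 0.0108, 0.00, 0.119 and 0.202 RPKM in any of the 21 samples. PLIN1, LPL and CD36 reached 0.618, 0.870 and 1.35 RPKM. CIDEC (11.1 to 54.1 RPKM) and CFD (5.65 to 25.0 RPKM) were present in primary tumors of each group as well. Adipocytes of the host are mouse cells, and how much of them these samples held was not tested. The sum over all 9 adipose markers was 30.2 to 68.1 RPKM in HNF4G-KO + FOXA1-OE metastases, within the 24.8 to 72.7 RPKM of HNF4G-KO + FOXA1-OE tumors.

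Across the 21 HPAF-II samples, some members varied together, given here as a description. HMGCS1, IDI1, SQLE and SC5D had Pearson correlations from 0.74 to 0.97 with each other on the log2 scale, with the highest between IDI1 and SC5D. EBP (-0.69), NSDHL (-0.63), PMVK (-0.75) and MVD, the mevalonate diphosphate decarboxylase (-0.61), were negatively correlated with IDI1. Without the 2 tumors that stand apart the former were from 0.45 to 0.96 and the latter -0.58, -0.57, -0.59 and -0.39 over 19 samples. The samples share groups and mice.

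Genes of the same metabolism that are no members were looked at by list. Of 13 other sterol genes, 12 were tested and 1 was called in HNF4G-KO against control tumors, where 12.2% of all genes were called. This was NPC2, a lysosomal cholesterol carrier, at 30.6, 32.1 and 40.2 RPKM in control tumors and 21.1, 16.8, 17.2 and 21.04 RPKM in HNF4G-KO tumors (-0.81, adjusted p = 0.0206). Of 21 other fatty acid and glycerolipid genes, 16 were tested. LPIN2, a relative of LPIN1, was called in that comparison (0.88, adjusted p = 0.0253), against the same 12.2% of all genes. SCD5, a second stearoyl-CoA desaturase, was called in HNF4G-KO + FOXA1-OE tumors against control (-1.64, adjusted p = 0.0182) and against FOXA1-OE tumors (-2.22, adjusted p = 0.00247). The shares of all genes called there were 4.70% and 7.86%. Its level was 10.4, 10.2 and 9.52 RPKM in control tumors and 1.06, 3.57, 1.08, 6.55 and 2.31 RPKM in HNF4G-KO + FOXA1-OE tumors.

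Among 12 genes of fatty acid oxidation, ECI2, an isomerase of unsaturated acyl-CoA, fell in HNF4G-KO (-1.06, adjusted p = 0.00605) and in HNF4G-KO + FOXA1-OE tumors against control (-1.23, adjusted p = 0.00377). Of all genes, 12.2% and 4.70% were called in these comparisons. Against FOXA1-OE tumors, HNF4G-KO + FOXA1-OE tumors had NPC2 (-0.99), ECI2 (-1.39) and DECR1, a mitochondrial dienoyl-CoA reductase (-0.61), lower, where 4.54% of all genes were called lower. Without the 2 tumors that stand apart, each of these calls of NPC2, LPIN2, SCD5, ECI2 and DECR1 passed the test as well. No gene of these 3 lists passed the test in the other HPAF-II comparisons or in the KPC lines (limma).

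In the KPC lines all 38 counterparts were tested. None was called between the liver metastasis line and the tumor line (limma, 0.00% of 12585 genes), none had an unadjusted p under 0.05, against 0.866% of all genes, and all differences lay between -0.09 and 0.16. The libraries of each line were far apart in some members. Fads2 was at 97.4, 107, 39.4 and 49.8 RPKM in tumor line replicates 1 to 4 and at 47.3, 44.5, 105 and 100.3 RPKM in metastasis line replicates 1 to 4. Fads1 was at 49.4, 48.95, 32.2 and 29.2 RPKM and 27.7, 28.3, 57.00 and 49.7 RPKM. In both genes tumor line replicates 1 and 2 were at the level of metastasis line replicates 3 and 4, and tumor line replicates 3 and 4 at that of metastasis line replicates 1 and 2.

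With the pairs of replicates apart, the differences were opposite in sign for 33 of 38 counterparts (86.8%), against 76.9% of all genes. In 26 of the 33 the metastasis line was lower in replicates 1 and 2 and higher in replicates 3 and 4. The median difference of the 17 sterol genes was -0.23 and 0.27 in the respective pairs, and that of the 16 fatty acid genes -0.33 and 0.27. The split by pairs follows the crossing seen in these same values and was not a planned comparison. Each pair holds 2 libraries per line, and its calls describe these libraries and not the lines. In replicates 1 and 2 alone 18 counterparts were called, against 25.5% of all genes. Of these, 17 were lower in the metastasis line, against 11.5% of all genes, and Insig2 was higher. The largest were Fads2 (-1.13), Msmo1, the sterol methyl oxidase (-0.81), Fads1 (-0.79), Mvd (-0.72) and Scd1 (-0.64). In replicates 3 and 4 alone none was called, against 0.635% of all genes, with Fads2 at 1.196 (adjusted p = 0.0912), Msmo1 at 0.76, Fads1 at 0.78, Mvd at 0.81 and Scd1 at 0.77. The labels give no reason for the split by replicate number, and its cause was not tested. Whether the line labels of 1 pair of replicates were exchanged was not tested either, in which case the pooled differences near 0 would not describe the lines.

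Of the named counterparts, Srebf1 was at 42.04, 38.7, 42.1 and 41.2 RPKM in the tumor line and 43.4, 42.6, 43.3 and 47.2 RPKM in the metastasis line, the only counterpart without overlap, against 0.477% of all genes higher and 0.207% lower (0.10, adjusted p = 1.00). The differences were -0.05 for Srebf2, 0.14 for Scap, 0.16 for Insig1, 0.01 for Insig2, -0.05 for Hmgcs1, 0.003 for Sqle, 0.01 for Fasn, 0.06 for Scd1 and -0.03 for Scd2. Insig1, a target of SREBPs, was at 84.5, 89.2, 59.2 and 45.5 RPKM and 66.9, 59.7, 101 and 78.4 RPKM, with the same crossing of replicates. Members that crossed little were Sqle (37.1 to 43.8 RPKM in all libraries), Elovl1 (18.4 to 21.8 RPKM) and Hsd17b7 (7.88 to 9.76 RPKM).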

How the data were processed

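The deposited values were RPKM, which the authors made from single-end RNA-seq reads (STAR 2.6.1a, featureCounts 2.0.4 and DESeq2 per the labels). Builds were GRCh37 per the study's methods and GRCh38 per the processing notes for human, and GRCm38 for mouse, so that coordinates here come from GENCODE (GRCh38) by gene ID. Counts were not used here, and 12 columns of other samples in the KPC table were left out. At least 99.78% of low values were whole multiples of 1 read, within 0.05 of a step, which gave the depths.

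Values were tested as log2(RPKM + 1) with limma 3.58.1 (R 4.3.3, trend, all groups of a fit sharing 1 variance), in genes that averaged 1 RPKM or more in the samples of a fit, with Benjamini-Hochberg adjustment over all genes and a threshold of 0.05. Fold changes of low genes are understated on this scale. Where a mouse gave several tumors or several metastases, their log2 values were averaged first, and group means ± SD are over mice. The 3 fits covered the primary tumors (14269 genes), tumors with metastases (14099) and the KPC lines (12585). Tumors and metastases of the same mouse, paired by the labels, had correlations of their deviations from 0.0241 to 0.359, and a fit with the mouse as a block was an alternative. The labels number samples but do not say that KPC libraries are separate cultures, and p-values then cover the spread between libraries. On simulated data with 200 genes changed by 1 log2 unit, the test for HNF4G-KO against control recovered 47.0% of them.

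Named in each comparison were the members called there and SREBF1, SREBF2, SCAP, INSIG1, INSIG2, HMGCS1, SQLE, FASN and SCD, and other members were named after their values were seen. 1 further result is not reported here. The members and lists were chosen with earlier results of these data known. Alternatives were another pseudocount (0.1), no filter, samples shifted to the same median, each sample left out, host stroma and adipose covariates, the tumor number as a block, and fits of only the groups compared. Leaving out both tumors that stand apart was added after seeing the data. Splitting the KPC replicates into pairs was a further alternative, which follows a pattern seen in the data.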

Additional observations from a re-analysis of the deposited data

Results flagged for a closer look

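Of 72 groups of 4 to 10 samples in which a sample was compared with the rest of its group, 2 had a sample far from the others by Dixon's test, where chance gives about 1 in 20. EBP was at 53.2 RPKM in HNF4G-KO + FOXA1-OE metastasis 1, from the spleen, and from 33.3 to 34.4 RPKM in the other 3 metastases, a gap of 0.948 of the range. Ebp was at 28.3 RPKM in KPC tumor line replicate 3 and from 35.2 to 36.5 RPKM in the other tumor line libraries, a gap of 0.840 of the range.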

How the results depend on the processing

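Over the 8 called differences, all 184 values under the alternatives kept their direction and 29 lost the call. DGAT2 (1.00 to 1.33) and EBP (-1.45 to -1.08) in HNF4G-KO against control tumors were called under all 23 alternatives. In that comparison 9 members were called with the host stroma covariate (24.2% of all genes), 8 with the host adipose covariate (27.4%), 8 without FOXA1-OE tumor 3 and HNF4G-KO + FOXA1-OE tumor 5 (31.8%), 11 in a fit of only the groups compared (39.7%), and from 2 to 5 with a sample left out (2.00% to 20.2%), with 2 without control tumor 2. For HNF4G-KO + FOXA1-OE against HNF4G-KO the stroma covariate gave 2 (0.519%) and leaving out both tumors 1 (0.199%). Against control tumors, no filter gave 1 (1.11%), leaving out both tumors 4 (8.89%), a fit of only the groups compared 0 (0.174%), and leaving out a sample 1 to 3 (0.931% to 7.49%). DGAT2 lost its call there with the adipose covariate, at 0.76 in place of 1.23 (adjusted p = 0.0665). Against FOXA1-OE tumors the stroma covariate gave 5 (12.5%), the adipose covariate 6 (18.4%), leaving out both tumors 4 (9.31%), only the groups compared 0 (0.597%), and leaving out a sample 1 to 5 (4.01% to 10.2%, 5 without FOXA1-OE tumor 2 or HNF4G-KO + FOXA1-OE tumor 5, 1 without FOXA1-OE tumor 1). In the KPC lines replicates 1 and 2 alone gave 18 (25.5%). The causes were not tested, apart from the smaller sets of samples. 

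Same-numbered tumors did not deviate together (correlations from -0.526 to 0.497), so that they share only a number. With the tumor number as a replicate block, 1 member was called in HNF4G-KO + FOXA1-OE against control tumors in place of 2 (2.41% of all genes), LPIN1 being lost (adjusted p = 0.108). The block gave 6 in place of 4 in HNF4G-KO against control tumors (15.7%), with ELOVL1 and IDI1 added, and 3 in place of 2 in HNF4G-KO + FOXA1-OE against FOXA1-OE tumors (6.52%), with HMGCS1 added. KPC libraries of the same number did not pair either (-0.412 to 0.209).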
